A study of Mus musculus with 6 samples.

Results

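The messages of the 8 condensin subunits were followed through a ribosome purification in mouse embryonic stem cells. The genes are Smc2 and Smc4, whose proteins form the core of every condensin complex, Ncapd2, Ncapg and Ncaph of condensin I, and Ncapd3, Ncapg2 and Ncaph2 of condensin II. They were 8 of 51912 genes with transcripts in the quantification, and all 8 were among the 13231 genes with enough counts to be tested. The set was proposed with the difference between the groups already known, so the members' own fold changes describe the set and no test is drawn from them. Poly(A) RNA of E14, an embryonic stem cell line from mouse, had been sequenced in 3 resin eluates and 3 sucrose cushion pellets. All 6 libraries came from E14 cells, with no altered gene named in the labels, grown on gelatin with serum and leukaemia inhibitory factor, and cycloheximide, which holds ribosomes on their messages, was given shortly before harvest. For the pellets, lysate was spun through a sucrose cushion and RNA was taken from the ribosome-containing pellet. For the eluates, pellet material was bound to a cysteine-charged resin and eluted, the step that RAPIDASH adds to the cushion. The comparison therefore asks which messages made up more or less of the RNA after the resin step than after the cushion alone. It gives relative levels and not the yield of the resin step.

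Condensins are ring-shaped complexes that form and hold loops of chromatin, and they shape chromosomes for mitosis. A pair of long coiled-coil ATPases, SMC2 and SMC4, meets at a hinge and is closed by a kleisin subunit, NCAPH in condensin I or NCAPH2 in condensin II, which carries a pair of HEAT-repeat proteins of the D and G families. Condensin II is nuclear through the cell cycle, condensin I reaches the chromosomes once the nuclear envelope has broken down, and embryonic stem cells, which divide quickly, depend on condensins for proliferation.

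The eluates held 10019627 to 11642883 estimated read counts and the pellets 7837621 to 10438536, of which a single condensin message took from 76 counts (Ncapg2) to 4571 counts (Ncaph2) in a library. The labels number the libraries of each kind 1 to 3 but do not tie them to separate cultures, so the spread that every p-value rests on is that between these libraries and may be technical. All 8 embryonic stem cell markers examined, Pou5f1 and Nanog among them, lay above 1 TPM (a level scaled for transcript length and to a common total per library), summing to 14574 to 14664 TPM in the eluates and 11112 to 12430 TPM in the pellets. Dppa5a made up most of these sums, at a mean of 10287.5 TPM in the eluates and 7529.05 TPM in the pellets. Pou5f1, Esrrb and Dppa5a had higher mean TPM in the eluates, and Nanog, Sox2, Zfp42, Klf4 and Tdgf1 lower. Of 6 fibroblast markers 1 lay above 1 TPM, the sum being 9.03 to 12.3 TPM in the eluates and 5.72 to 9.07 TPM in the pellets, and Col1a2, Col3a1, Postn and Dcn stayed under 0.1 TPM in every library. Of 5 primitive endoderm markers 3 lay above 1 TPM, at 6.90 to 8.08 TPM in sum in the eluates and 6.00 to 8.57 TPM in the pellets, and of 5 neural and mesoderm markers 3 did, at 7.84 to 8.25 TPM in the eluates and 7.75 to 8.84 TPM in the pellets. The part of these sums in the condensin values was not tested. These are bulk libraries of fractions, scaled to a common total. Less of a message in a fraction and more of other messages there cannot be told apart.

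Relative to the pellets, the eluates held less of 7 of the 8 condensin messages and more of Ncaph2. The lower messages ranged from 19.97% of the pellet level for Smc2 to 78.3% for Ncapd2, and Ncaph2 stood at 126.7%. All 8 members were called, at an adjusted p under 0.05 in edgeR's quasi-likelihood test with Benjamini-Hochberg adjustment over all 13231 genes, in a comparison where 52.7% of tested genes were called, 28.2% as lower and 24.5% as higher in the eluates. Because the set was chosen on this contrast, nothing is read from those counts. The median log2 fold change was -1.42 over the members and 0.0035 over all tested genes. The members ran from -2.32 to 0.34, so subunits that assemble into the same complexes had very different fold changes.

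**Figure D1:**
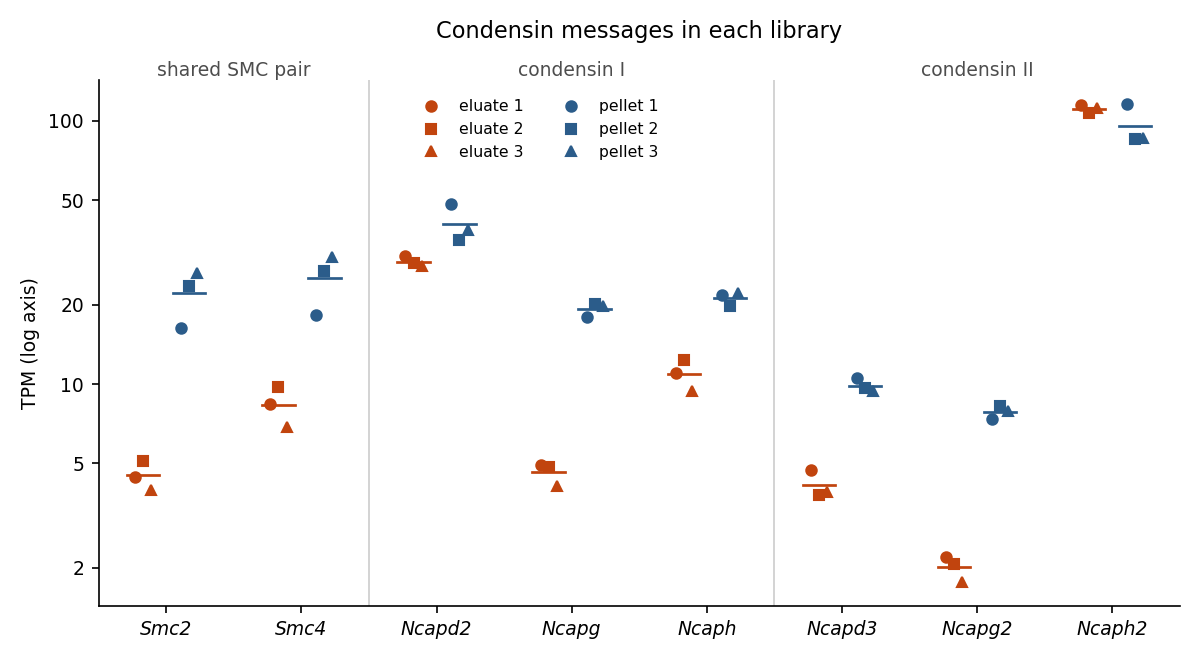
TPM of each condensin message in the 3 eluates (left of each pair) and the 3 pellets (right of each pair), with a bar at the mean, on a log axis. Points of the groups lie apart for every subunit except Ncaph2, where 1 pellet reached 116 TPM against 107 to 114 TPM in the eluates. Separated groups were common on counts scaled for library size with normalization factors. Every eluate lay below every pellet for 31.2% of all tested genes and above for 29.1%.

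Smc2 encodes an ATPase subunit present in both complexes. It was listed at 4.43, 5.12 and 3.95 TPM in eluates 1 to 3, against 16.3, 23.7 and 26.3 TPM in pellets 1 to 3. Every eluate lay below every pellet, and pellet 1 was the lowest of the pellets. CPM are counts scaled for library size with TMM normalization factors, and not for length. On CPM the means were 20.4 ± 3.01 in the eluates and 102 ± 31.9 in the pellets (SD, n = 3 each). Groups without overlap on CPM were common among all tested genes, at 31.2% with every eluate lower and 29.1% with every eluate higher. The same shares apply to the other members described below. The log2 fold change of eluate over pellet was -2.32 ± 0.31 (SE), the lowest of the 8 and the 23rd lowest of all 13231 tested genes. Smc2 was counted from 2 transcripts that share 98.0% and 99.5% of their 31-base words, and the share of its TPM given to the longer one ran from 0% to 100% across the eluates and from 16.2% to 87.3% across the pellets. The values given for Smc2 are therefore the sum of both transcripts, unless the main transcript is named.

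Smc4 encodes the partner ATPase. It was at 8.42, 9.75 and 6.86 TPM in eluates 1 to 3, against 18.3, 26.8 and 30.5 TPM in pellets 1 to 3. Its groups did not overlap either, and pellet 1 was again the lowest pellet. The log2 fold change was -1.65 ± 0.32, and the gene lost its call when both libraries numbered 2 were left out (-1.70, edgeR adjusted p = 0.0943). Smc2 stood at 0.527, 0.525 and 0.576 times Smc4 in eluates 1 to 3 and at 0.894, 0.882 and 0.864 times Smc4 in pellets 1 to 3, on the TPM scale. The messages of this obligate pair were thus less even in every eluate than in any pellet.

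In condensin I, Ncapg encodes the HEAT-repeat subunit of the G family. Its level was 4.93, 4.84 and 4.10 TPM in eluates 1 to 3, against 17.9, 20.1 and 19.8 TPM in pellets 1 to 3. The log2 fold change was -2.08 ± 0.13, with the eluates at 23.7% of the pellet level. The gap between the groups was many times the spread within either. Part of this message lies opposite the gene Lcorl, whose exons overlap it on the other strand over 944 bases, and the sources used here do not give the strandedness of the libraries. With the counts of Lcorl added, the log2 fold change was -1.995.

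Ncaph encodes the kleisin of condensin I, the subunit that closes the ring. It was at 10.99, 12.3 and 9.37 TPM in eluates 1 to 3, against 21.8, 19.8 and 22.2 TPM in pellets 1 to 3. The log2 fold change was -0.89 ± 0.11, the eluates holding 54.1% of the pellet level without overlap. Ncapd2, the HEAT-repeat subunit of the D family, was at 30.7, 28.7 and 28.1 TPM in eluates 1 to 3, against 48.2, 35.2 and 38.6 TPM in pellets 1 to 3. Its log2 fold change of -0.35 ± 0.075 was the least negative among the 7 lower messages. Pellet 1 was the highest pellet for Ncapd2, where it was the lowest for both SMC genes. Within condensin I the G subunit message was 0.426 ± 0.0296 of the kleisin message in the eluates and 0.909 ± 0.0980 of it in the pellets (TPM ratio, SD, n = 3 each).

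In condensin II, Ncapd3 encodes the D-family subunit. It was at 4.702, 3.80 and 3.89 TPM in eluates 1 to 3, against 10.5, 9.63 and 9.39 TPM in pellets 1 to 3. The log2 fold change was -1.19 ± 0.10. Ncapg2, the G-family subunit, had the fewest counts of the set, 108, 101 and 76 estimated counts in eluates 1 to 3, against 241, 372 and 257 in pellets 1 to 3. In TPM this was 2.21, 2.07 and 1.77 in the eluates, against 7.38, 8.24 and 7.87 in the pellets. Its log2 fold change was -1.93 ± 0.14, with the eluates at 26.2% of the pellet level. Both messages were lower in every eluate than in any pellet.

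Ncaph2 encodes the kleisin of condensin II and was the only member with more of its message in the eluates. It was at 114.4, 106.9 and 112.0 TPM in eluates 1 to 3, against 116.1, 85.5 and 85.9 TPM in pellets 1 to 3. On that scale pellet 1 lay above all eluates and the groups overlapped. In CPM the values were 398, 381 and 393 in eluates 1 to 3, against 348, 291 and 285 in pellets 1 to 3, without overlap. The log2 fold change was 0.34 ± 0.075. The call did not hold on log2(TPM + 1) values in limma (0.23, adjusted p = 0.138) or without both libraries numbered 3 (0.29, edgeR adjusted p = 0.0573). The count of Ncaph2 is uncertain, since its exons overlap Sco2 and Tymp on the opposite strand and 41.5% of the 31-base words of its main transcript occur in transcripts of other genes. Sco2, a copper chaperone gene of mitochondria, was at 34.9, 33.6 and 33.0 CPM in eluates 1 to 3, against 24.5, 23.6 and 20.7 CPM in pellets 1 to 3, and with Sco2 and Tymp added to Ncaph2 the log2 fold change was 0.36.

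**Figure D2:**
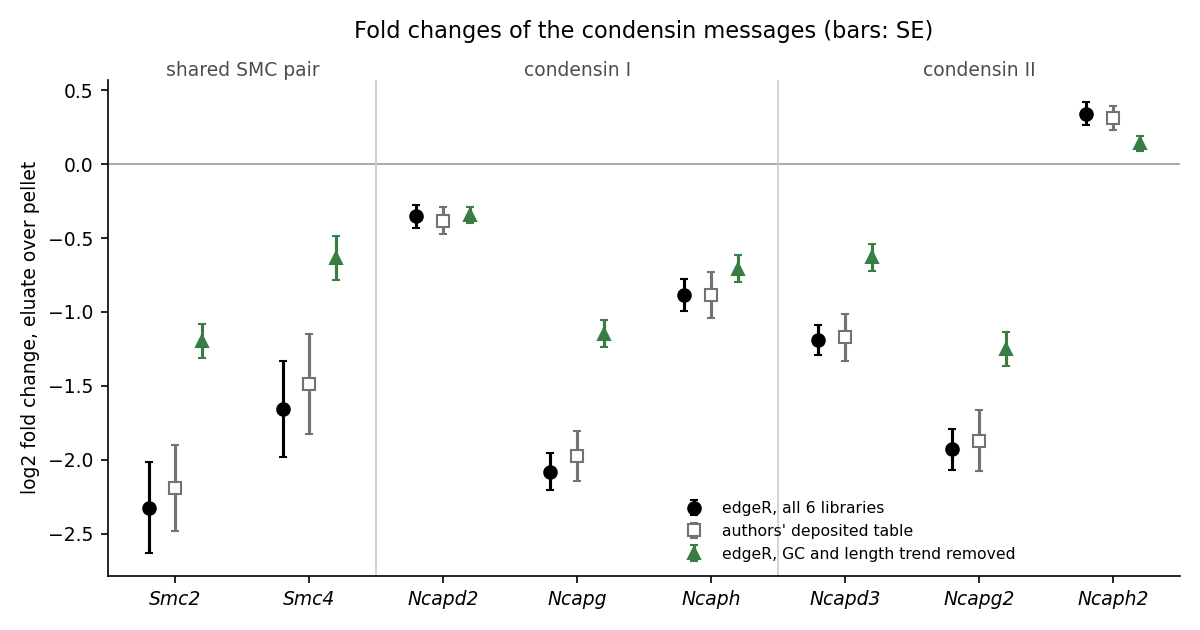
Log2 fold change of eluate over pellet for each condensin message, with bars of 1 SE, from edgeR (circles), from the authors' deposited table (open squares) and from edgeR with each library's trend in GC content and length removed (triangles). The 7 negative values came closer to 0 without the trend, except for Ncapd2 at -0.35 in both fits, and Ncaph2 moved to 0.14.

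The 2 kleisin messages therefore lay on opposite sides of 0, at 0.34 for Ncaph2 and -0.89 for Ncaph, while the G-family messages were close to each other at -2.08 for Ncapg and -1.93 for Ncapg2. Ncapg stood at 2.29 ± 0.0557 times Ncapg2 in the eluates and 2.46 ± 0.0452 times in the pellets (TPM ratio, SD, n = 3 each). Ncapd2 stood at 7.10 ± 0.532 times Ncapd3 in the eluates and 4.11 ± 0.458 times in the pellets.

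Summed TPM gives the same members as complexes. The SMC pair summed to 12.8 ± 2.03 TPM in the eluates and 47.3 ± 11.4 TPM in the pellets (SD, n = 3 each, as for the sums that follow). The 3 condensin I messages summed to 44.7 ± 2.75 TPM in the eluates and 81.2 ± 6.41 TPM in the pellets. The 3 condensin II messages summed to 117 ± 4.29 TPM in the eluates and 113 ± 17.7 TPM in the pellets, but Ncaph2 carried most of that sum. Without it, Ncapd3 and Ncapg2 summed to 6.15 ± 0.670 TPM in the eluates and 17.7 ± 0.364 TPM in the pellets. Ncaph2 made up 63.6% ± 2.17 of all condensin TPM in the eluates and 39.4% ± 5.10 in the pellets. The ratio of condensin I to condensin II was 0.381 ± 0.0273 in the eluates and 0.722 ± 0.0623 in the pellets, without overlap. That direction rests on Ncaph2, whose count is uncertain: with Ncaph2 left out of condensin II, the ratio was 7.30 ± 0.542 in the eluates and 4.59 ± 0.358 in the pellets, higher in the eluates and again without overlap.

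**Figure D3:**
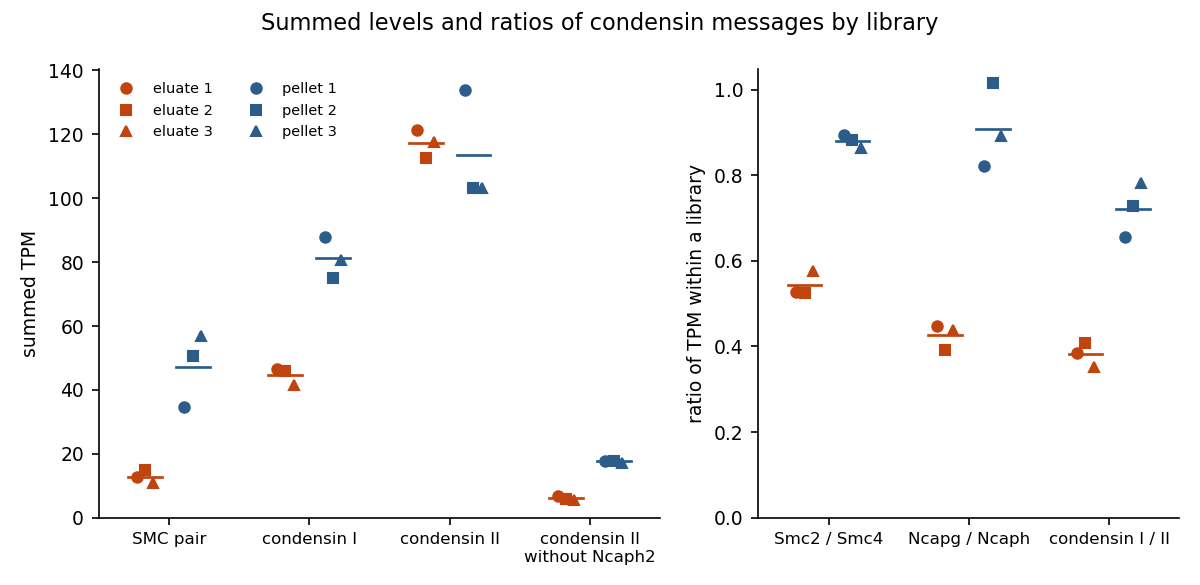
Summed TPM of the SMC pair, of condensin I, of condensin II and of condensin II without Ncaph2 in each library, eluates left of pellets, with a bar at the mean, and TPM ratios within a library on the right. Of the 4 sums, only that of condensin II with Ncaph2 had overlapping groups, and none of the 3 ratios did. The ratio of condensin I to condensin II is drawn with Ncaph2 included.

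The order of the levels per length also differed. From high to low it was Ncaph2, Ncapd2, Ncaph, Smc4, Ncapg, Smc2, Ncapd3 and Ncapg2 by the eluate means, and Ncaph and Smc4, Ncapg and Smc2, and Smc2 and Ncapd3 were neighbours whose library values overlapped. In the pellets it was Ncaph2, Ncapd2, Smc4, Smc2, Ncaph, Ncapg, Ncapd3 and Ncapg2, with overlap from Smc4 through Ncapg. Smc2 and Smc4 thus came before Ncaph by the pellet means and after it by the eluate means, although in pellet 1 Ncaph came before both. The highest message exceeded the lowest by 55.5 ± 6.66 times in the eluates and 12.3 ± 2.95 times in the pellets.

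The members differ widely in base composition. Fold changes were known when the set was proposed and followed GC content over all tested genes, so the choice of members is not independent of this property. Transcript GC content, averaged over a gene's transcripts, was 39.5% for Smc2, 39.5% for Smc4 and 39.8% for Ncapg, against a median of 51.0% over the tested protein-coding genes. It was 44.3% for Ncapg2, 46.3% for Ncapd3 and 48.3% for Ncaph, and 54.0% for Ncapd2 and 55.6% for Ncaph2. Only 3.21% of coding genes had a lower GC content than Smc2, and 75.4% had a lower one than Ncaph2. The difference reaches into the coding sequence and is also seen at the last base of the codons, of which 39.8% are G or C in Smc2, 34.9% in Smc4, 35.2% in Ncapg and 65.6% in Ncaph2. To show it, 120 bases of coding sequence are printed for both ends of the range, each the stretch whose GC content is nearest that of its whole coding sequence, 5′ to 3′ with G and C in capitals. Smc2 (chromosome 4, coding bases 10 to 129, 49 of 120 bases G or C) and Ncapg (chromosome 5, coding bases 193 to 312, 48 of 120) stand for the messages lowest in the eluates relative to the pellets. Ncapd2 (chromosome 6, coding bases 22 to 141, 65 of 120) and Ncaph2 (chromosome 15, coding bases 16 to 135, 68 of 120) stand for those highest relative to the pellets. The sequences are GENCODE mouse release 21 transcripts of the same identifier and length as those quantified.
Smc2: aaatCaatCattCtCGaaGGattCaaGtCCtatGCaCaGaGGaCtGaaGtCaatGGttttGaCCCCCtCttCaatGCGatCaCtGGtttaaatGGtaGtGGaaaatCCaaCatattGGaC
Ncapg: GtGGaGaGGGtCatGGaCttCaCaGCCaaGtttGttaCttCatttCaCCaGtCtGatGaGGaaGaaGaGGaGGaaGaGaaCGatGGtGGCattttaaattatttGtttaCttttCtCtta
Ncapd2: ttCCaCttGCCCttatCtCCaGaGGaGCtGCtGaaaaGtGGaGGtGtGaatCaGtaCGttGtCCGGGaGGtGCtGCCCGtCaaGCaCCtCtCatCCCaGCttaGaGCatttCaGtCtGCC
Ncaph2: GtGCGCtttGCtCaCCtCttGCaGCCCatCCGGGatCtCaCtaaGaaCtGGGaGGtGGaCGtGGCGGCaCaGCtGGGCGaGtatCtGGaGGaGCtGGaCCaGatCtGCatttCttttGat

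Across the 8 members the log2 fold change followed GC content, at a Pearson r of 0.94 and a Spearman rho of 0.86 for the whole transcript and an r of 0.90 and a rho of 0.81 for last codon positions. These are descriptions over 8 genes that share the same libraries. All 8 coding sequences were longer than the median of 1337 bases over tested coding genes, from 1819 bases for Ncaph2 (its transcripts averaged) to 4521 bases for Ncapd3, so long coding sequence is common to the set. Among the members, fold change followed coding length little (r = -0.37, rho = -0.14). Ncapd2 has a coding sequence of 4179 bases, longer than those of 94.3% of coding genes, and stood at 78.3% of its pellet level. Ncapg, with 3015 bases, stood at 23.7% of its pellet level.

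**Figure D4:**
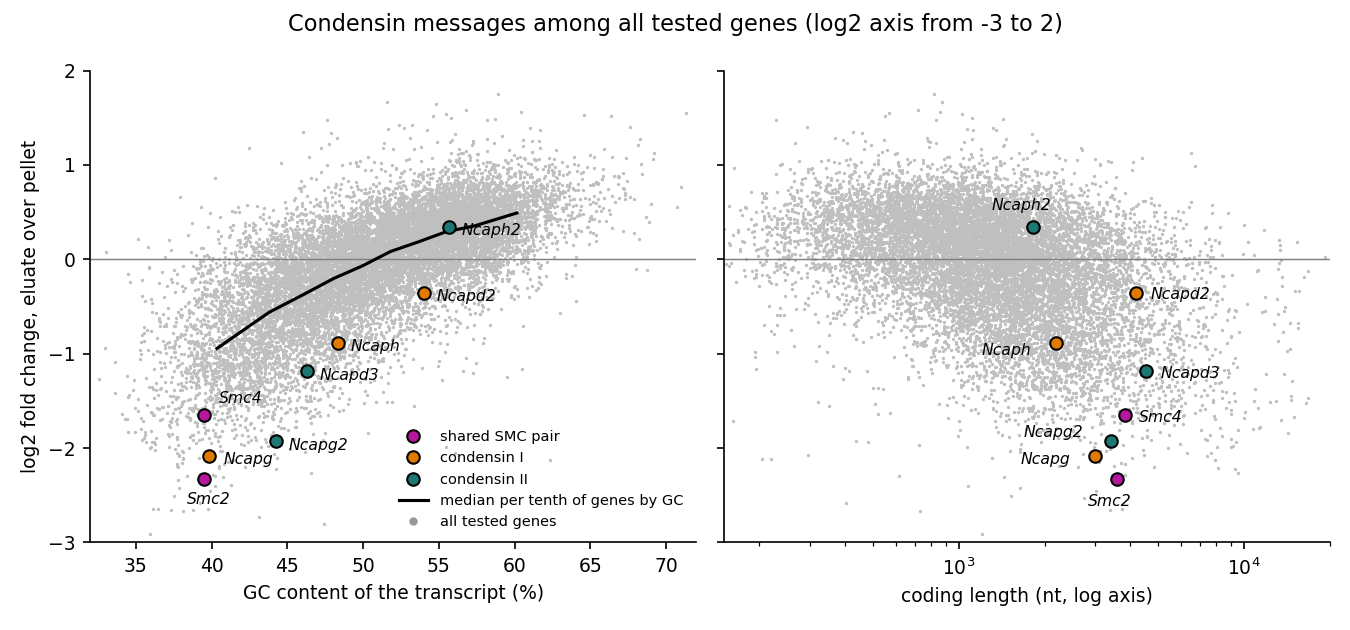
Log2 fold change of eluate over pellet against transcript GC content (left) and coding length (right, log axis) for all tested genes in grey and the condensin messages in colour, with a black line through the medians of 10 groups of genes by GC content. The members run upward with GC content, as the grey genes do, from Smc2 at 39.5% and -2.32 to Ncaph2 at 55.6% and 0.34. Genes off the axes number 22 in the left panel and 23 in the right one, which also lacks 998 genes without a coding length.

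Over all tested genes, too, the log2 fold change was higher at higher GC content, and the members were set beside genes of like GC content. Genes were split by GC content into 10 groups of like size. In the group of lowest GC content, which holds Smc2, Smc4 and Ncapg, the median log2 fold change was -0.94 and the 10th percentile -1.69. Smc2 at -2.32 and Ncapg at -2.08 lay under that percentile, and Smc4 at -1.65 lay just above it. Ncapg2 lay under the corresponding percentile of -1.30 in its group, Ncapd3 under -1.03, Ncaph under -0.86 and Ncapd2 under -0.29. Ncaph2 at 0.34 was close to the median of 0.29 in its group. With each library's smooth trend in GC content and transcript length removed, the log2 fold change became -1.19 for Smc2, -1.15 for Ncapg, -1.25 for Ncapg2, -0.71 for Ncaph, -0.63 for Smc4 and -0.63 for Ncapd3. It stayed at -0.35 for Ncapd2 and became 0.14 for Ncaph2. All 8 members were still called in that fit, 7 as lower and 1 as higher, where 15.8% of all tested genes were called lower and 19.0% higher. The member median was -0.67. Because the set was chosen on this contrast in these libraries, nothing is read from these calls or from the members' places in their GC groups. With the trend in GC content alone removed, Ncaph2 was at 0.075 and not called (edgeR adjusted p = 0.305).

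Pellet 1 stood apart from pellets 2 and 3 for some of these messages. On the log2 CPM scale it lay at -0.88 relative to their mean for Smc2, -0.90 for Smc4, -0.41 for Ncapg and -0.36 for Ncapg2, near it at -0.15 for Ncaph and -0.07 for Ncapd3, and above it at 0.21 for Ncapd2 and 0.27 for Ncaph2. Across the 8 members this difference between pellets, in which no eluate enters, also followed transcript GC content (r = 0.93, rho = 0.98). It was not particular to condensin: among the related genes described below it ran from -1.18 for Mki67 to 0.24 for Aurkb. Its spread over all tested genes is not given here. Without pellet 1, the log2 fold change was -2.56 ± 0.09 for Smc2 and -1.90 ± 0.11 for Smc4, each with a smaller SE than with all 3 pellets. For libraries of like number, eluate over pellet, Smc2 was at -1.75, -2.30 and -2.80 and Smc4 at -1.003, -1.57 and -2.28 for numbers 1, 2 and 3, while Ncapd2 was at -0.43, -0.24 and -0.38. The member median was -0.98, -1.46 and -1.69 for those numbers. On CPM all 7 lower messages were lower for each number, and Ncaph2 was higher for each, at 0.19, 0.39 and 0.46. On TPM Ncaph2 was lower in eluate 1 than in pellet 1, at 114 against 116 TPM.

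The mean profile of the members over the 6 libraries separated the groups. Centred on each gene's mean log2 CPM, the mean of the 8 members was -0.57, -0.53 and -0.77 in eluates 1 to 3, against 0.43, 0.71 and 0.72 in pellets 1 to 3. Ncaph2 ran opposite to this mean, at a Pearson r of -0.94 over the 6 libraries, and Ncapd2 followed it at 0.85, while the r of the other 6 members was 0.975 to 0.999. Each gene is itself part of that mean. Against the mean of the other 7 members, r was -0.94 for Ncaph2, 0.84 for Ncapd2 and 0.964 to 0.998 for the rest. Of 8530 other protein-coding genes with a mean of at least 10 CPM, 27.1% correlated above 0.9 with the mean profile of all 8 members, so such likeness was common. The closest were the transporter gene Abcg2, the stress granule protein gene G3bp2, the deubiquitinase gene Usp14, the histone-binding protein gene Rbbp7 and the splicing factor gene Sf3b1, at r of 0.999 or more. Their log2 fold changes were -1.0025, -1.01, -0.86, -0.65 and -1.35.

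Other chromosome complexes and partners of condensin were listed beside these values. The lists were chosen with earlier results of these data known. Their calls and medians are therefore descriptions, and nothing is read from how they compare with all tested genes. Of 13 genes of cohesin and its partners, the ring complex that holds sister chromatids together, 12 were called lower and 1 higher in the eluates, where 28.2% of all tested genes were called lower and 24.5% higher, with a median log2 fold change of -1.39. Rad21, the cohesin kleisin, was at 194 ± 8.77 CPM in the eluates and 327 ± 4.48 CPM in the pellets (SD, n = 3 each), a log2 fold change of -0.75 ± 0.064 (edgeR adjusted p = 2.6e-07). That of Cdca5, which encodes the cohesin-stabilising protein sororin, was 0.52 ± 0.076 (adjusted p = 3.83e-05), at 193 ± 11.4 CPM in the eluates and 135 ± 11.3 CPM in the pellets. With the trend in GC content and length removed, the list median was -0.52 and Rad21 was at -0.15. In that fit 11 genes of the list were called lower and 1 higher, where 15.8% of all tested genes were called lower and 19.0% higher.

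Of 9 genes of the SMC5/6 complex, its partners and Smchd1, 5 were called lower and 2 higher, with a median of -1.12. Among all tested genes 28.2% were called lower and 24.5% higher. Smchd1, an SMC-like protein of the inactive X chromosome, was lower by a log2 fold change of -1.55 ± 0.14 (12.8 ± 2.36 CPM in the eluates and 37.8 ± 4.56 CPM in the pellets, adjusted p = 5.75e-07), and the other 4 called lower, named after their values were seen, were Smc5, Smc6, Slf1 and Slf2. Nsmce1, a RING-finger subunit, was higher at 0.35 ± 0.075 (87.4 ± 0.875 CPM in the eluates and 68.3 ± 3.84 CPM in the pellets, adjusted p = 0.000946), as was Nsmce3, also named after its value was seen. Nsmce4a, a kleisin like Ncaph and Ncaph2, was not called at 0.14 ± 0.070 (adjusted p = 0.0965). Without the trend the list median was -0.064, with 3 called lower (Smc5, Smc6 and Smchd1) and 2 higher (Nsmce2 and Nsmce3). That fit called 15.8% of all tested genes lower and 19.0% higher. The values in it were -0.55 for Smchd1, 0.0055 for Nsmce1 and -0.053 for Nsmce4a.

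Of 13 regulators and chromosome partners of condensin, 8 were called lower, 2 higher and 3 not called, with a median of -0.31. Among all tested genes 28.2% were called lower and 24.5% higher. Top2a, topoisomerase II alpha, which works beside condensin on mitotic chromosomes, was at 111 ± 12.2 CPM in the eluates and 325 ± 19.7 CPM in the pellets, a log2 fold change of -1.55 ± 0.083 (edgeR adjusted p = 1.14e-08). Ccnb1, the cyclin B1 that activates the kinase CDK1, was at 344 ± 12.6 CPM in the eluates and 427 ± 11.04 CPM in the pellets, or -0.31 ± 0.062 (adjusted p = 0.000524), but at 0.16 once the trend was removed (adjusted p = 0.0343), so its direction depends on that step. Birc5, survivin of the chromosomal passenger complex, was at 0.40 ± 0.070 (adjusted p = 0.000159) and no longer called without the trend (0.12, adjusted p = 0.0887). Aurkb was the other gene called higher, and the genes not called were Cdk1, Plk1 and Cdca8, named after their values were seen. Without the trend the list median was -0.14, with 5 called lower (Cdk1, Incenp, Top2a, Kif4 and Akap8) and 3 higher (Aurkb, Ccnb1 and Csnk2a1), where 15.8% of all tested genes were called lower and 19.0% higher. Csnk2a1, a catalytic subunit of casein kinase 2, turned from -0.41 as fitted to 0.25 in that fit.

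**Figure D5:**
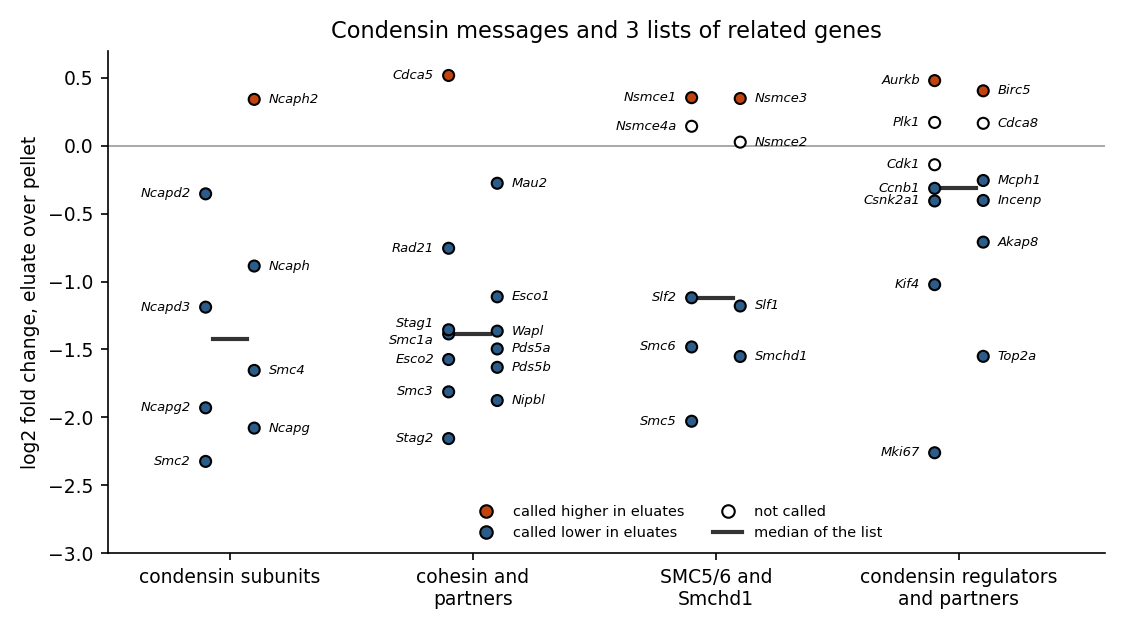
Log2 fold change of eluate over pellet for the condensin messages and for 3 lists of related genes, coloured by call, with a bar at each list's median. The medians run from -1.42 for condensin and -1.39 for cohesin to -1.12 for SMC5/6 and Smchd1 and -0.31 for the regulators and partners.

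In the authors' deposited table all 8 condensin genes were listed, with log2 fold changes of -2.19 for Smc2, -1.49 for Smc4, -1.97 for Ncapg, -0.88 for Ncaph, -0.38 for Ncapd2, -1.17 for Ncapd3, -1.87 for Ncapg2 and 0.31 for Ncaph2. The order of the 8 by fold change was the one found here, with Smc2 lowest and Ncaph2 highest.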

How the data were processed

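Poly(A) RNA was sequenced in 3 RAPIDASH eluates and 3 sucrose cushion pellets, grouped by their titles. Per the submitters' processing notes, the tools were Salmon 1.10.3, STAR 2.7.11b, DESeq2 1.44.0 and cutadapt 4.7 and the genome build GRCm39; their roles, their order and the annotation release are not stated there. The deposited files hold, per the file headers, the authors' Salmon estimated counts, TPM and effective lengths per transcript. The authors' deposited comparison table holds, per its headers, mean normalized counts (signal), log2 fold changes with SE, a Wald statistic (score), and p-values before and after adjustment.

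Of 84226 transcripts, 76858 had their identifier in GENCODE mouse release 21, in 51912 genes, 75250 of them at an unchanged length. The rest, 1.63% to 2.35% of the estimated counts per library, were not used. That release uses another genome build, so positions are not printed. Estimated counts were summed per gene, rounded and tested with edgeR 4.0.16 in R 4.3.3 (robust quasi-likelihood, TMM factors, Benjamini-Hochberg adjustment at a threshold of 0.05, default filter on low counts, checked on simulated data). The SE is the absolute log2 fold change divided by the square root of the test's F statistic. Trends in GC content and length were removed per library with splines of 5 degrees of freedom. Alternatives used limma 3.58.1, DESeq2 1.42.0, other scaling and filters, a replicate block, an effective-length offset, main transcripts alone, log2(TPM + 1), an adjusted p under 0.01 and left-out libraries. Adding overlapping genes was chosen after seeing the data. The members and the related lists were chosen with earlier results of these data known, and related genes were named by smallest p, highest mean CPM and smallest p in the other direction. Tables were made in pandas 2.3.3 and numpy 2.4.6, and plots in matplotlib 3.10.9 (Python 3.11.15).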

Additional observations from a re-analysis of the deposited data

How the results depend on the processing

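Over 178 alternative values of the members' fold changes, 172 kept direction and call, 6 lost the call and 0 changed direction. The lost calls were those of Ncaph2 with the trend in GC content removed, on log2(TPM + 1) values and without both libraries numbered 3, Smc4 without both libraries numbered 2, and Smc2 (-3.01, adjusted p = 0.142) and Smc4 (-1.16, adjusted p = 0.0854) on their main transcripts alone. In the first 3 of these settings 0 members were called higher, and over the left-out libraries the number was 0 to 1. The 178 values do not include the stricter threshold of 0.01. There 6 members were called lower, and Smc4 (edgeR adjusted p = 0.0117) was not called. That threshold called 2940 of the 13231 tested genes lower and 2332 higher. The member median of -1.42 became -0.67 with the GC and length trend removed, also with the replicate block, and -0.75 with the GC trend alone removed; it was -1.60 to -1.25 over the left-out libraries. The 3736 genes called lower became 2095 without the trend and 2087 without it and with the replicate block. The 3241 called higher became 1889 on log2(TPM + 1) values and 1949 to 3733 over the left-out libraries, lowest without both numbered 3. The cause of these shifts was not tested. The members called lower numbered 6 to 7 over the 22 settings in which all members were counted together, which leave out the main transcripts alone. Over those settings 2087 to 4040 of all tested genes were called lower, and some settings tested a different number of genes. Of the 35 related genes 25 to 32 were called, against 30 as reported, where 52.7% of all tested genes were called. Residuals of libraries of like number correlated at 0.07, 0.15 and -0.01 for numbers 1 to 3, and eluates 1 and 2 correlated best with the pellet of their own number and eluate 3 with pellet 1. The labels do not say that a number marks a shared pellet, so the numbers were not taken to pair the samples. With 3 libraries per group, centred within the group, these correlations cannot decide whether they do. With the replicate block alone 7 members were called lower and 1 higher, and Ncaph2 was at 0.35. That fit called 3770 of all tested genes lower and 3306 higher. Ncapg2, at 76 to 108 counts per eluate, has the least depth of the set.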
